A study of Mus musculus with 6 samples.

Results

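The genes described here encode the subunits of voltage-gated sodium, calcium and potassium channels, of the other potassium channels and of the hyperpolarization-activated HCN channels. They were taken by name: protein-coding genes of the deposited count table whose symbol follows the naming of these families (Kcn, Scn1a to Scn11a with the beta subunits, Cacna1, Cacna2d, Cacnb and Hcn). Of 56941 Ensembl genes in the table, 129 met this rule, and 112 of them had enough counts to be tested. The poly(A) RNA came from the ventral hippocampus of 6 mice, 3 with the genotype label NEGR1_overexpression and 3 labelled NEGR1_control, which were the only groups. NEGR1 is a cell adhesion molecule on the surface of neurons, and the study asked how raising it bears on working memory and on behaviour that models anxiety and depression. For the mice, the sources used here name no age, sex or strain, and for the overexpression no promoter, vector or cell type.

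Voltage-gated channels open when the membrane potential changes. Sodium channels drive the upstroke of the action potential, potassium channels repolarise the cell and set its firing pattern, and calcium channels couple the action potential to transmitter release and to signalling inside the cell. Each consists of a pore-forming protein, which decides the ion and the gate, and accessory proteins, which set trafficking and kinetics. In the hippocampus the Kv4 channel of Kcnd2 carries the dendritic A-type current, and HCN channels carry the current that sets dendritic integration. Inward rectifiers of the Kir group hold the resting potential in neurons and buffer potassium in astrocytes.

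The 6 libraries held 30726110 to 38108394 counts, and 1.09 to 1.13% of a library's counts fell on the channel genes. Levels are given in CPM after scaling with TMM factors. Negr1 itself had 185, 199 and 195 CPM in overexpression libraries, against 181, 168 and 179.9 CPM in control libraries, a fold of 1.09 (95% interval 1.01 to 1.19) with an adjusted p of 0.488 in edgeR's quasi-likelihood test. The overexpression libraries all lay above the control libraries, by a narrow gap, and an exact permutation test of log2 CPM (two-sided) returned 0.1, the smallest p that 3 against 3 allows. Of the 13 cell type and region marker lists, 0 had a gene at 0 counts in all 6 libraries, which does not show an equal make-up. The 5 neuronal markers summed to 5650 to 6065 CPM under overexpression, against 5862 to 6326 CPM in control libraries. Dentate granule cell markers summed to 134, 285 and 238 CPM in overexpression libraries, against 187, 218 and 169.9 CPM in control libraries. The 5 meningeal fibroblast markers, all with a fold above 1, summed to 90.8 to 114 CPM under overexpression, against 65.0 to 104 CPM in control libraries. Because the tissue is bulk, fewer cells of a type and less RNA per cell cannot be told apart.

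Channel genes spanned a wide range of levels. Per kilobase of exon, 45 of the 129 genes averaged at least 10 CPM, 48 lay between 1 and 10 CPM and 36 were below 1 CPM. The highest level belonged to Kcnab2, the beta2 accessory subunit of Kv1 channels, at 128 ± 2.58 CPM per kilobase in overexpression and 139 ± 8.65 in control libraries (SD, n = 3 each). Its range over the 6 libraries was 125 to 148 CPM per kilobase. Scn2b, a sodium channel beta subunit, lay well below it at 58.1 to 63.3 CPM per kilobase, and its range touched that of neither neighbour in the order.

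Further down per kilobase were the calcium sensor Kcnip2 that binds Kv4 channels, Scn3b, another sodium channel beta subunit, and Cacnb3, a cytoplasmic beta subunit of calcium channels. Kcnip2 was at 40.3 to 53.2, Scn3b at 41.2 to 49.7 and Cacnb3 at 41.2 to 45.0 CPM per kilobase over the 6 libraries, so these neighbours did not differ beyond their spread. Below them came a long run of genes whose ranges overlapped one into the next. It held the astrocytic inward rectifier Kcnj10 at 29.6 to 37.9 CPM per kilobase, the sodium channel pores Scn2a at 28.4 to 33.9 and Scn8a at 30.1 to 33.8, Hcn2 at 26.5 to 33.6 and the R-type calcium channel pore Cacna1e at 27.4 to 32.5. Within families, the highest per kilobase were Kcnab2 among accessory Kv subunits, Kcnj10 among inward rectifiers, Kcnk1 (a leak channel) among two-pore-domain channels, Kcnma1 (the large-conductance BK pore) among calcium- and sodium-activated channels, Scn2a among sodium channel pores and Cacna1e among calcium channel pores. For Kcnj10 and Scn2a the range overlapped that of the next gene in the same family, so their first places are not settled. With the longest transcript as the length in place of all exons merged, 8 of the 10 highest genes were shared.

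**Figure D1:**
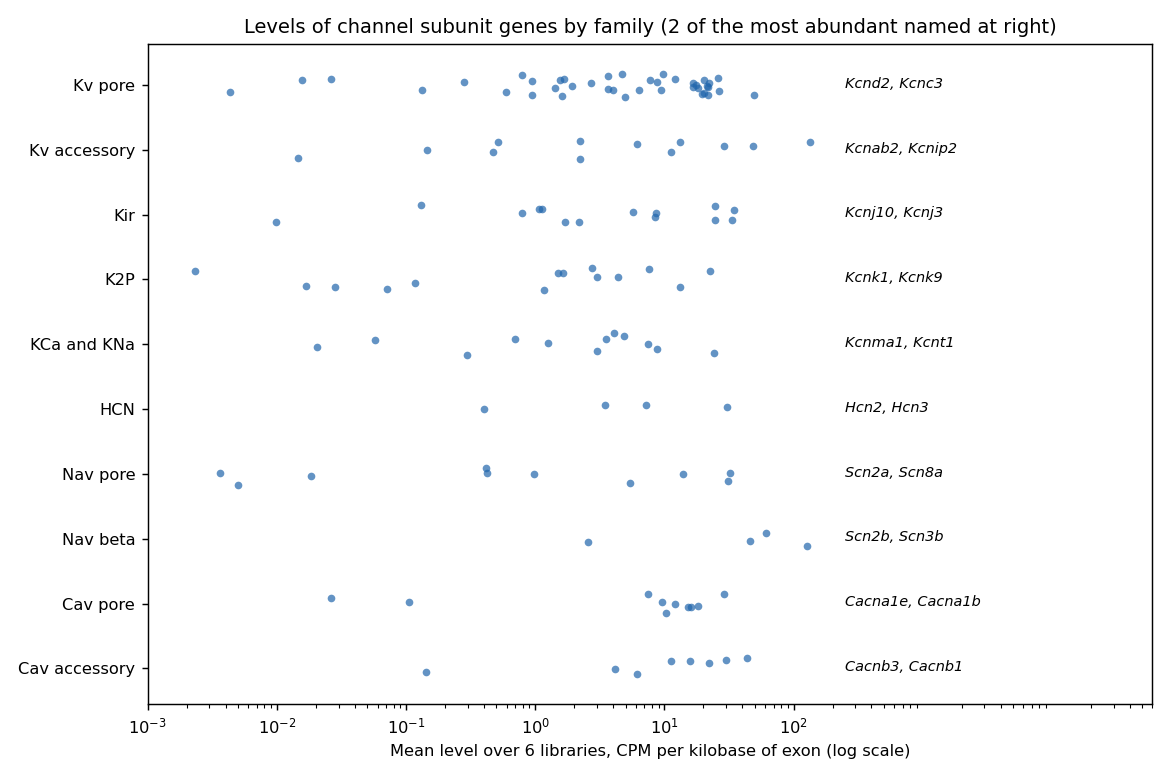
Mean level of each channel gene over the 6 libraries, in CPM per kilobase of exon on a log axis, by family; the gene with 0 counts is left out. Each point is a gene, 2 of the most abundant in each family are named at the right, and Kcnab2 lies furthest to the right.

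No channel gene passed the test between overexpression and control. At an adjusted p of 0.05, edgeR's quasi-likelihood test called 0 of 112 channel genes, where it called 0.0465% of all 19354 genes tested; the smallest adjusted p of a channel gene was 0.372. DESeq2 called 0 channel genes as well, against 0.553% of all genes, and limma-voom called 0. An unadjusted p below 0.05 was reached by 12 channel genes, 10.7% of those tested, beside 9.24% of all genes. The groups did not overlap for 17 channel genes, 15.2%, beside 15.1% of all genes. Both shares are near the background. Of the 17, 6 were higher in overexpression (5.36%, beside 7.07% of all genes) and 11 lower (9.82%, beside 8.07%). At an unadjusted p below 0.05 DESeq2 counted 11 of 112 channel genes, beside 7.31% of all genes, and limma-voom 13, beside 9.67%.

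The differences themselves were small. The fold change lay within 1.2 times in either direction for 101 of 112 channel genes, 90.2%, beside 82.2% of all genes. Among genes at 10 CPM or more, this held for 77 of 78 channel genes and 9952 of 10211 genes, so the gap was smaller there. The 95% interval of the fold lay wholly between 0.8 and 1.25 for 65 channel genes, 58.0%, beside 46.4% of all genes. Channel genes were also measured more precisely, with a median SE of the log2 fold change of 0.0880, against 0.111 over all genes. Among genes at 10 CPM or more, the median SE was nearly equal, at 0.0684 for channel genes and 0.0696 for all genes. The fold was below 1 for 62 channel genes, 55.4%, beside 49.6% of all genes, and the median log2 fold change was -0.014 over the channel genes and 0.0015 over all genes. At 10 CPM or more, the fold was below 1 for 44 of 78 channel genes and 5599 of 10211 genes. The median log2 fold changes there were -0.014 and -0.012. Summed over all 129 genes, the channel transcripts made up 11039 ± 252 CPM under overexpression, against 11102 ± 295 CPM in control libraries (SD, n = 3 each).

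**Figure D2:**
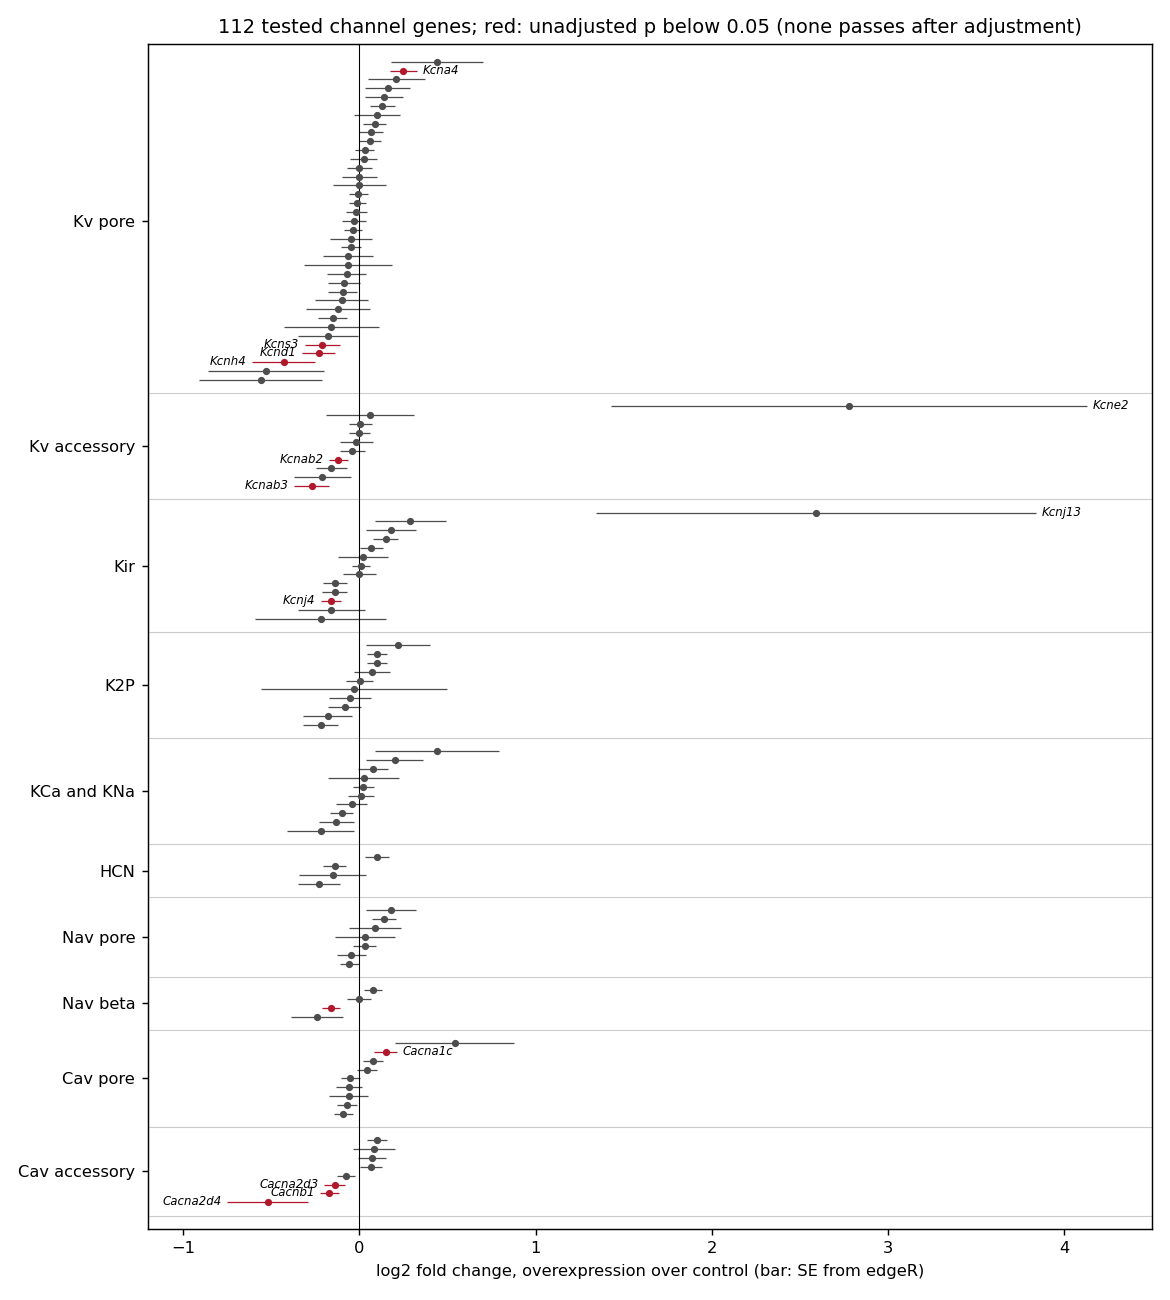
Log2 fold change (overexpression over control) of the 112 tested channel genes, one row per gene within its family, with the SE from edgeR as a bar. The 12 red genes, 11 of them named, had an unadjusted p below 0.05; 0 passed after adjustment, and Kcne2 and Kcnj13 stand apart at 2.78 and 2.59 with wide errors.

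Of the 12 genes with an unadjusted p below 0.05, 2 were higher and 10 lower in overexpression. The higher ones made up 1.79% of tested channel genes, beside 4.64% of all genes, and the lower ones 8.93%, beside 4.60% of all genes. Among genes at 10 CPM or more, 2 of 78 channel genes were higher and 8 lower at that p, beside 471 and 708 of 10211 genes. The split over all tested channel genes moved with the processing. It was 4 higher and 8 lower with upper-quartile scaling, and 4 higher and 4 lower after a correction for the GC content of transcripts. In these settings 9.06 and 7.99% of all genes had such a p. The count was 20, with 6 higher and 14 lower, without overexpression replicate 1, where 12% of all genes had such a p, and 9 of the 12 genes were among those 20.

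Among the 37 tested Kv pores, the fold was above 1 for 13 and below 1 for 24 (median log2 fold change -0.028, but 0.0095 after the GC correction and 0.0049 without overexpression replicate 2). Kcna4, whose Kv1 channel carries a fast inactivating A-type current, had 24.7, 27.2 and 25.9 CPM in overexpression libraries, against 20, 22.3 and 23.0 CPM in control libraries. All 3 overexpression libraries lay above all 3 control libraries, with a fold of 1.19 (95% interval 1.06 to 1.34). Its adjusted p in edgeR's test was 0.372 and the unadjusted p 0.00569. Kcnd1, a Kv4 pore, had 13.9, 12.4 and 12.8 CPM in overexpression libraries, against 14.2, 14.8 and 16.8 CPM in control libraries. The groups did not overlap and the fold was 0.855 (0.743 to 0.984; adjusted p = 0.489 in edgeR's test). Kcnh4, of the ether-a-go-go family, was at 3.17 ± 0.429 CPM under overexpression, against 4.25 ± 0.813 CPM in control libraries, with overlap (SD, n = 3 each). Kcns3, a modulatory subunit of Kv2 channels, was at 10.7 ± 1.02 CPM under overexpression, against 12.4 ± 0.213 CPM in control libraries, without overlap.

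Several well-known Kv genes of the hippocampus differed by less than the spread between replicates. Kcnq3, a pore that restrains repetitive firing, stood at 303 ± 21.5 CPM under overexpression, against 289 ± 23.6 CPM in control libraries (SD, n = 3 each). Kcnd2 was at 132 ± 13.9 CPM under overexpression, against 141 ± 12.6 CPM in control libraries. The axonal Kv1 genes Kcna1 and Kcna2 had folds of 1.0 each, with 95% intervals of 0.852 to 1.17 and 0.903 to 1.11.

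Accessory Kv subunits had 3 genes above 1 and 7 below 1 (median log2 fold change -0.028). Kcnab2, the most abundant, had 697, 721 and 722 CPM in overexpression libraries, against 730.3, 825 and 763 CPM in control libraries. The overexpression libraries were all lower, by a fold of 0.923 (95% interval 0.851 to 1.0; adjusted p = 0.540 in edgeR's test). Kcnab3, the third beta subunit, had 18.4, 15.2 and 14.0 CPM in overexpression libraries, against 18.6, 18 and 20.6 CPM in control libraries. Its groups overlapped through overexpression replicate 1, and the fold was 0.831 (0.712 to 0.969; adjusted p = 0.460 in edgeR's test). The antisense gene Kcnab3os overlaps its exons by 147 bases, but averaged only 0.119 CPM.

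**Figure D3:**
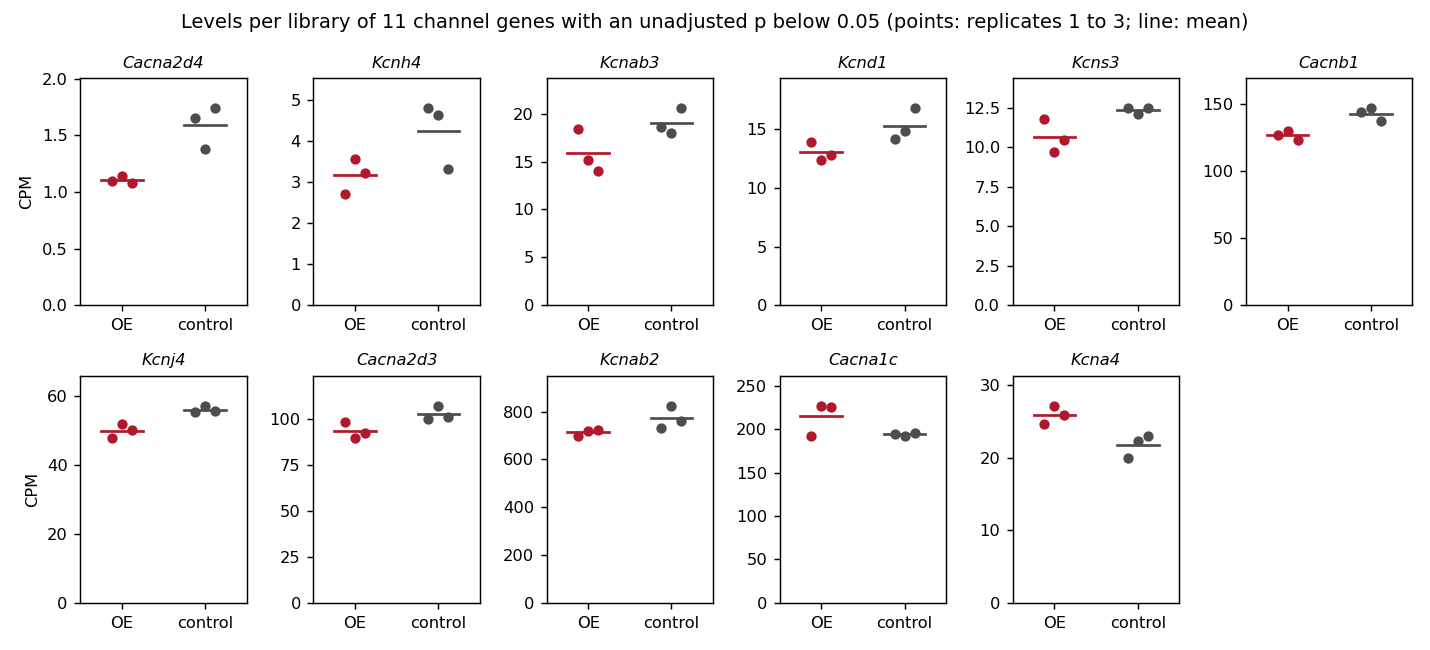
CPM in each library of 11 channel genes with an unadjusted p below 0.05, overexpression (OE, red) at left and control (grey) at right, with points for replicates and a line for the mean; axes start at 0. The 2 genes higher in overexpression, Cacna1c and Kcna4, are last, and the groups overlap for Kcnh4, Kcnab3 and Cacna1c.

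Inward rectifiers had 8 genes above 1 and 5 below 1. Kcnj4, a strong neuronal rectifier, had 47.8, 52.0 and 50.2 CPM in overexpression libraries, against 55.3, 57.2 and 55.6 CPM in control libraries. The groups did not overlap, with a fold of 0.892 (95% interval 0.819 to 0.971; adjusted p = 0.423 in edgeR's test). Kcnj11, the pore of the ATP-sensitive potassium channel, was at 30.1 ± 1.27 CPM under overexpression, against 33.3 ± 1.85 CPM in control libraries (SD, n = 3 each), again without overlap. Kcnj10, which astrocytes use to take up potassium, had 195, 160.2 and 174 CPM in overexpression libraries, against 185, 194 and 205 CPM in control libraries. Overexpression replicate 1 lay inside the control range, and the fold was 0.908 (0.818 to 1.01; adjusted p = 0.575 in edgeR's test). The 5 astrocyte markers, of which 1 had a fold above 1, summed to 1438 to 1562 CPM under overexpression, against 1599 to 1763 CPM in control libraries. Most of that gap was Gfap, a filament protein of astrocytes, at 356 ± 39.9 CPM under overexpression, against 508 ± 37.2 CPM in control libraries (SD, n = 3 each; adjusted p = 0.0862 in edgeR's test). Aqp4, Gja1, Slc1a3 and Aldh1l1 overlapped between the groups. The 5 myelin markers also had lower sums, at 2793 to 3303 CPM under overexpression, against 3541 to 4420 CPM in control libraries. The part of either marker list in the Kcnj10 value was not tested. Kcnj8, the rectifier of pericytes and vascular smooth muscle, was at 2.56 ± 0.198 CPM under overexpression, against 2.87 ± 0.506 CPM in control libraries, while the markers of those cells summed to 246 to 300.3 CPM under overexpression, against 225 to 268 CPM in control libraries.

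Two-pore-domain leak channels had 5 genes above 1 and 5 below 1. Kcnk1 was at 52.4 ± 0.963 CPM under overexpression, against 48.8 ± 2.54 CPM in control libraries, and the mechanosensitive Kcnk4 at 11.3 ± 1.33 CPM under overexpression, against 13.1 ± 0.763 CPM in control libraries (SD, n = 3 each). Kcnk4 shares 587 exon bases on the same strand with Catsperz, so its counts are uncertain. Kcnk13, the leak channel of microglia, was at 4.75 ± 0.533 CPM under overexpression, against 5.38 ± 0.502 CPM in control libraries. Among calcium- and sodium-activated channels 6 genes were above 1 and 4 below 1, and 0 of 10 had an unadjusted p below 0.05. Kcnma1 was at 416 ± 32.1 CPM under overexpression, against 409.5 ± 10.1 CPM in control libraries, and Kcnn3, a small-conductance channel that carries the afterhyperpolarization that follows action potentials, at 41.1 ± 2.86 CPM under overexpression, against 44.2 ± 0.965 CPM in control libraries. Kcnmb1, the BK accessory subunit of smooth muscle, stood low at 1.45 ± 0.672 CPM under overexpression, against 1.06 ± 0.319 CPM in control libraries.

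Of the 4 HCN genes, 1 had a fold above 1 and 3 below 1. Hcn2 had 96.9, 98.0 and 84.5 CPM in overexpression libraries, against 102, 98.1 and 107 CPM in control libraries, a fold of 0.907 (95% interval 0.823 to 1.0). The groups did not overlap, by the narrow gap between overexpression replicate 2 and control replicate 2, and the adjusted p in edgeR's test was 0.542. Hcn3 was at 13.2 ± 2.03 CPM under overexpression, against 15.5 ± 1.83 CPM in control libraries (SD, n = 3 each).

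Of the 10 families, sodium channel pores were closest to equality, with a median size of the log2 fold change of 0.0577. Scn2a, the main pore of excitatory neurons, was at 410.5 ± 18.9 CPM under overexpression, against 402 ± 35.8 CPM in control libraries (SD, n = 3 each). Scn8a, which lowers the threshold at the axon initial segment, had a fold of 0.961 (95% interval 0.887 to 1.04), and Scn1a, the pore on which parvalbumin interneurons depend, had 0.969 (0.853 to 1.10). Scn3a, a mainly embryonic pore, was at 70.0 ± 6.18 CPM under overexpression, against 63.7 ± 2.60 CPM in control libraries. Scn9a, best known in sensory neurons, was at 5.65 ± 0.601 CPM under overexpression, against 4.98 ± 0.189 CPM in control libraries.

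Of the 4 sodium channel beta subunits, 1 had a fold above 1 and 3 below 1. Scn2b was higher in all overexpression libraries than in any control library, at 292 ± 3.0 CPM under overexpression, against 276 ± 8.23 CPM in control libraries (SD, n = 3 each), with a fold of 1.06 (95% interval 0.981 to 1.13; adjusted p = 0.667 in edgeR's test). Scn4b, which supports resurgent current, was at 11.6 ± 1.54 CPM under overexpression, against 13.8 ± 2.92 CPM in control libraries.

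Calcium channel pores had 4 genes above 1 and 5 below 1. Cacna1c, the main L-type pore of the brain, had 192, 227 and 226 CPM in overexpression libraries, against 194, 192 and 196 CPM in control libraries. Overexpression replicates 2 and 3 were high and replicate 1 was at the control level, so the groups overlapped. The fold was 1.11 (95% interval 1.01 to 1.22; adjusted p = 0.497 in edgeR's test), and without overexpression replicate 1 the log2 fold change was 0.22, against 0.15 with all libraries, with an adjusted p of 0.0957 in edgeR's test. Dentate granule cell markers had their lowest sum in overexpression replicate 1, at 134 CPM, against 169.9 to 285 CPM elsewhere. The part of these markers in the Cacna1c value was not tested. The release channels Cacna1a (P/Q-type) and Cacna1b (N-type) had folds of 0.952 (0.877 to 1.03) and 0.939 (0.867 to 1.02). Cacna1e was at 749.8 ± 60.2 CPM under overexpression, against 711 ± 18.7 CPM in control libraries (SD, n = 3 each).

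Of 8 accessory calcium channel subunits tested, 3 had an unadjusted p below 0.05, all lower in overexpression, where 4.60% of all genes were lower at that p. Cacnb1, a cytoplasmic beta subunit, had 127, 129.7 and 123 CPM in overexpression libraries, against 144, 147 and 137 CPM in control libraries. The groups were clearly apart, with a fold of 0.887 (95% interval 0.820 to 0.960), an unadjusted p of 0.00559 and an adjusted p of 0.372 in edgeR's test. Cacna2d3, an extracellular alpha2delta subunit, had 98.2, 89.4 and 92.0 CPM in overexpression libraries, against 99.6, 107 and 101 CPM in control libraries, a fold of 0.907 (0.832 to 0.988). Its groups did not overlap either, though overexpression replicate 1 came close to control replicate 1. Cacna2d4 had the same order at low level, at 1.11 ± 0.0295 CPM under overexpression, against 1.59 ± 0.185 CPM in control libraries (SD, n = 3 each). Cacnb3, the most abundant beta subunit per kilobase, had a fold of 0.950 (0.880 to 1.02).

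The promoters of 3 of these genes are shown because they had the smallest unadjusted p-values among the channel genes named here. RefSeq windows on GRCm38.p6, from 250 bases before to 50 after the start, were matched for 94 of the 129 genes, as 129 windows. Capitals mark the Sp1-type GC box GGGCGG or its reverse complement CCGCCC, searched on both strands, with adjoining boxes in 1 run. For Cacnb1, and for Kcne2 further on, the window with more CpG dinucleotides is given.
Kcna4, chr2:107290339-107290638, + strand: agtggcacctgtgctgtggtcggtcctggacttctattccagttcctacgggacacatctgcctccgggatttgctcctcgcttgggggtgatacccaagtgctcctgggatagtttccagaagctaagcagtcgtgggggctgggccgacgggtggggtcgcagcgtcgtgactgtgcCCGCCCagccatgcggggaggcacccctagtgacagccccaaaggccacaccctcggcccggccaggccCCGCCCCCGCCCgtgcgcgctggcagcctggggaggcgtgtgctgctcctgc
Cacnb1, chr11:98022578-98022877, - strand: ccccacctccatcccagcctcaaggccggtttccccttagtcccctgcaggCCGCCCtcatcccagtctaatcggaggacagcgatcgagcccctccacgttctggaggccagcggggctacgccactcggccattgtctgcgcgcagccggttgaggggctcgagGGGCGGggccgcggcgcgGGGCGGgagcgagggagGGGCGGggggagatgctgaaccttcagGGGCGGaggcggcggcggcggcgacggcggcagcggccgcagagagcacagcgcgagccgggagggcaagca
Kcnj4, chr15:79505192-79505491, - strand: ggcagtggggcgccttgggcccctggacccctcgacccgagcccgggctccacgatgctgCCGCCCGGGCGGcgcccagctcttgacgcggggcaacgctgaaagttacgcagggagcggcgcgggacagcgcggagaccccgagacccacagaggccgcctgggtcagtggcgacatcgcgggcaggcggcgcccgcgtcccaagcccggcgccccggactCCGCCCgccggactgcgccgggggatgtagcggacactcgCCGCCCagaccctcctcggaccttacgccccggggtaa
All 3 windows hold GC boxes, 3 in Kcna4, 5 in Cacnb1 and 4 in Kcnj4, in both the gene that was higher and the genes that were lower in overexpression. At least 1 such box was in 47.3% of channel windows and 35.7% of all 32851 windows. CpG dinucleotides numbered 20, 34 and 41 in these windows, where the median was 9 over channel windows and 7 over all windows. The Cacnb1 window was picked for its CpG dinucleotides, so its counts beside these medians rest on that choice. The other Cacnb1 window held 3 CpG dinucleotides and 0 GC boxes.

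The transcripts of these genes are also unequal in base composition. The 10 genes that were lower with an unadjusted p below 0.05 had a median GC content of 56.6%, the 2 higher ones 44.8 and 50.3%, and the other 100 tested channel genes a median of 51.5%. Across the 78 channel genes at 10 CPM or more, Spearman's rho between GC content and log2 fold change was -0.363; across all 10170 such genes with a known GC content it was -0.427. These correlations are across genes that share the same 6 libraries and are descriptions only. A GC correction fitted to each library takes out the trend with GC content over all genes by construction, so the rho after it is no test. With this correction, rho was -0.0160 over the channel genes. Of 112 tested channel genes, 8 had an unadjusted p below 0.05, beside 7.99% of all genes, and 6 of the 8 were among the 12. Kcna4, Cacnb1, Cacna1c, Cacna2d3, Kcnab3 and Kcns3 were those 6. Kcnj4, with a GC content of 59.3%, had a corrected log2 fold change of -0.11 in place of -0.16, with an unadjusted p of 0.0734 in edgeR's test.

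**Figure D4:**
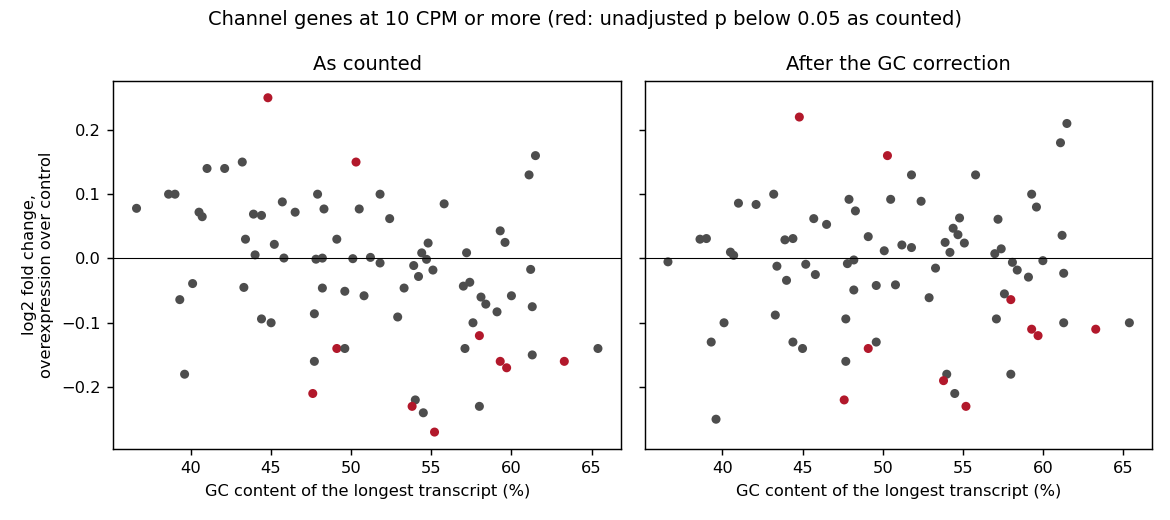
Log2 fold change (overexpression over control) of the 78 channel genes at 10 CPM or more against the GC content of their longest transcript in percent, as counted at left and after the GC correction at right. Red genes had an unadjusted p below 0.05 as counted. The downward slope at left (rho -0.363) is not seen at right (rho -0.0160), where the correction takes out such a trend by construction.

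The widest differences of any channel genes rested on 1 library. Kcnj13 and Kcne2 encode an inward rectifier and a small accessory subunit, and both are known from the apical membrane of the choroid plexus, the tissue that secretes cerebrospinal fluid. Kcnj13 had 5.97, 0.965 and 0.444 CPM in overexpression libraries, against 0.436, 0.293 and 0.492 CPM in control libraries. Kcne2 had 4.06, 0.380 and 0.361 CPM in overexpression libraries, against 0.125, 0.293 and 0.262 CPM in control libraries. Overexpression replicate 1 was far above the other 5 libraries for both genes. The groups overlapped for Kcnj13. For Kcne2 they did not, by a narrow gap, with 13 counts in overexpression replicates 2 and 3 against 11 in control replicate 2. The fitted log2 fold changes were 2.59 ± 1.25 and 2.78 ± 1.35 (SE), with adjusted p-values of 0.621 and 0.618 in edgeR's test, and without overexpression replicate 1 they were 0.79 and 0.69, with adjusted p-values of 0.518 and 0.669.

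Choroid plexus markers were also highest in that library. The 6 markers, all with a fold above 1, summed to 739, 51.9 and 75.6 CPM in overexpression libraries, against 29.6, 54.0 and 34.3 CPM in control libraries, and 0 of them were at 0 in all 6 libraries. Transthyretin (Ttr) stood at 639.9 CPM in overexpression replicate 1, against 3.08 to 38.3 CPM elsewhere. Clic6, Otx2 and Kl were higher in all overexpression libraries than in any control library. For Kl the gap was narrow, with 23.6 CPM in overexpression replicate 2 against 23.5 CPM in control replicate 2. The part of these markers in the channel values was not tested. Kcnj13 shares 623 exon bases with Gigyf2 on the opposite strand, a gene at 100 CPM, and with no stated strand setting for the counting its low values are uncertain.

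**Figure D5:**
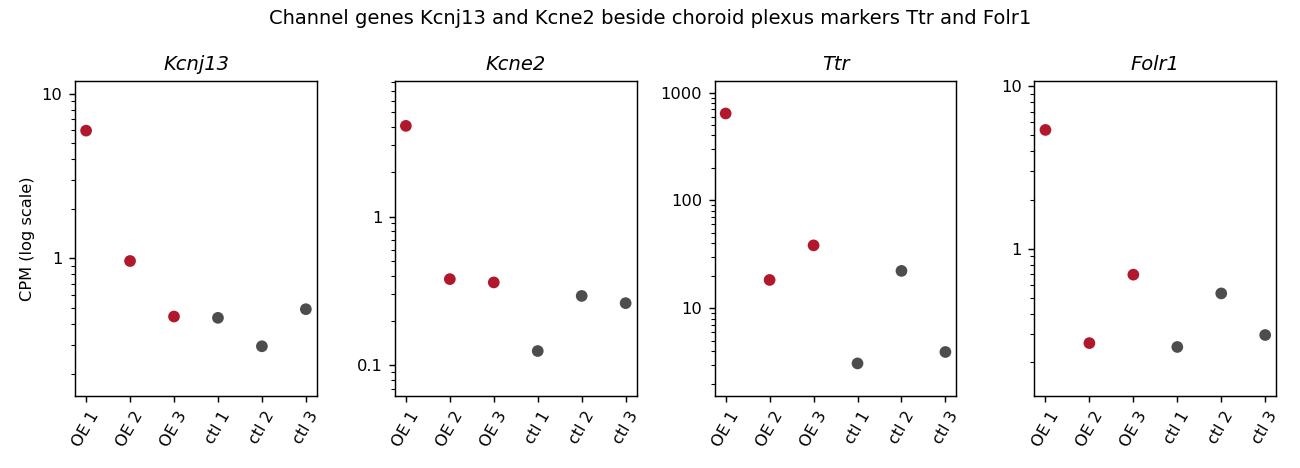
CPM on log axes of Kcnj13, Kcne2 and the choroid plexus markers Ttr and Folr1 in each library, overexpression (OE, red) at left and control (ctl, grey) at right. In all 4 panels overexpression replicate 1 is the highest point, at 5.97, 4.06, 639.9 and 5.40 CPM.

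The promoters of this pair are given because both genes were high in the same library. Capitals mark a TATA box (TATAAA) in Kcnj13 and a GC box in reverse complement in Kcne2.
Kcnj13, chr1:87394680-87394979, - strand: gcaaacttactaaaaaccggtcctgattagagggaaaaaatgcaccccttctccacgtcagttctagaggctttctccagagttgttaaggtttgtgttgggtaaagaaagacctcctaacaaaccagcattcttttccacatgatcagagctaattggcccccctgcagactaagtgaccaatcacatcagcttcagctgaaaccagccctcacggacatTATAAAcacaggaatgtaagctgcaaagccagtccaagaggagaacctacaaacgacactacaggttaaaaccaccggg
Kcne2, chr16:92292139-92292438, + strand: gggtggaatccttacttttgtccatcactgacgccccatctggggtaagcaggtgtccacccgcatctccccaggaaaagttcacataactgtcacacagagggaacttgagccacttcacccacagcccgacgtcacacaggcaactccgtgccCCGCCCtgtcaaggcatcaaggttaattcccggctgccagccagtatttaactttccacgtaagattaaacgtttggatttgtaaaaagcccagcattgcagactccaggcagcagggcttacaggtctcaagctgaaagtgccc
TATAAA on either strand was in 13.6% of all windows and 5.43% of channel windows. The motif TAATCC, the core bound by OTX factors, was in 7.06% of all windows and in neither of these 2. With 5 and 9 CpG dinucleotides, both windows held fewer than those of Kcna4, Cacnb1 and Kcnj4.

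Partners of the channels outside the naming rule were read from a list of 48 genes, which held anchoring proteins, auxiliary subunits and adhesion proteins of the nodes of Ranvier. Of 46 tested, 0 passed in edgeR's test, 15 had a fold above 1 and 31 below 1, and the median log2 fold change was -0.035. Over all genes, 49.6% had a fold below 1 and the median was 0.0015. An unadjusted p below 0.05 was reached by 9, all lower in overexpression, where 4.60% of all genes were lower at that p. Of 10211 genes at 10 CPM or more, 5599 had a fold below 1, the median was -0.012, and 708 were lower at that p. Stac2, an adaptor of L-type calcium channels, had 66.8, 60.2 and 62.5 CPM in overexpression libraries, against 76.8, 82.2 and 78.2 CPM in control libraries. The groups were well apart, with a fold of 0.799 (95% interval 0.731 to 0.873) and an adjusted p of 0.0939 in edgeR's test. It passed with DESeq2 (adjusted p = 0.00262), without overexpression replicate 1 (adjusted p = 0.0258 in edgeR's test) and with no filter on low counts (0.000425). In the other 12 of 15 settings it did not pass.

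Abcc8, the sulfonylurea receptor that assembles with Kcnj11, had 33.6, 35.8 and 36.6 CPM in overexpression libraries, against 42.7, 41.0 and 43.2 CPM in control libraries. Its groups did not overlap, with a fold of 0.836 (95% interval 0.763 to 0.916; adjusted p = 0.215 in edgeR's test, and 0.0418 with no filter). In the other 14 of 15 settings Abcc8 did not pass. Its adjusted p in edgeR's test was 0.429 after the GC correction and 0.604 without control replicate 3. Its channel partner Kcnj11 had a fold of 0.905 (0.818 to 1.0). Cntn2, an adhesion protein that clusters Kv1 channels beside the node and that neurons and oligodendrocytes share, had 138, 111 and 122 CPM in overexpression libraries, against 142, 156 and 155 CPM in control libraries. The fold was 0.818 (0.731 to 0.915), with an adjusted p of 0.269 in edgeR's test, 0.0258 without overexpression replicate 1 and 0.00103 with no filter. In the other 13 of 15 settings Cntn2 did not pass. Its adjusted p in edgeR's test was 0.458 after the GC correction and 0.640 without control replicate 3. The 5 myelin markers, 0 of which had a fold above 1, summed to 2793 to 3303 CPM under overexpression, against 3541 to 4420 CPM in control libraries, and their part in the Cntn2 value was not tested.

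The 17 channel genes without enough counts for the test held 0 to 61 counts each over the 6 libraries. Kcnj1, the renal outer medullary channel, had 0 counts in every library, which allows up to 0.0787 to 0.0976 CPM in a library (3 counts, for counting error only). Scn10a, a pore of sensory neurons, had 6 counts in all, the skeletal muscle pore Scn4a 7 and Kcnn4, a channel of blood and immune cells, 61. Cacna1s, the L-type pore of skeletal muscle, had 12, 7 and 8 counts in overexpression libraries, against 2, 3 and 3 in control libraries. These genes, with Scn2b, Scn3b, Kcnip2, Kcnh4, Kcns3 and Cacna2d4, fall outside the rule for genes described singly and were chosen after their values were seen.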

How the data were processed

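Libraries were strand-specific and made from poly(A)-selected RNA, per the labels' protocols, with 1 mouse per library per the series' design text. One deposited table gives raw counts for each Ensembl gene; 0 of its per-sample columns went unused. The submitters' processing notes list Trimmomatic 0.36, STAR 2.7.10, featureCounts 2.0.3 and the builds mm10 and GRCm39, without saying what each was used for. No annotation release or strand setting is stated, and a wrong setting would shift reads between overlapping genes.

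A gene name table gave symbols for 51948 of 56941 identifiers; those without held 0.264 to 0.348% of a library's counts. Biotype, exon lengths, GC content (longest transcript) and exon overlaps came from GENCODE's mouse annotation of GRCm38, and promoters from RefSeq. Of the symbols that matched, 5 belong to antisense genes and were left out. The members, gene lists and tests were chosen with earlier results of these data known.

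Counts were fitted with edgeR 4.0.16 (R 4.3.3): its quasi-likelihood test with robust dispersion, TMM factors, filterByExpr and a group term, on 19354 genes, with Benjamini-Hochberg adjustment over all of them. Named genes were, per family, the 2 with the smallest p and the highest per kilobase, 18 well-known channel genes, Negr1, and the 3 partner genes with the smallest p; results of some genes that the rule takes are not reported here. The procedure was tested on simulated data. Of genes changed by a fold of 1.25 there, 24% passed, with 66% at 1.5 and 80% at 2, and 11 unchanged genes passed. Differences of the size seen for most channel genes would thus often be missed. Alternatives were RLE and upper-quartile scaling, scaling without Negr1 and mitochondrial genes, other filters, DESeq2 1.42.0, limma 3.58.1 (voom with sample weights), the replicate number as a block, a GC correction (GC content known for 97.7% of tested genes) and leaving out each library. Libraries of every pair differed beyond sampling noise (chi-square per degree of freedom 4.28 to 12.9).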

Additional observations from a re-analysis of the deposited data

How the results depend on the processing

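At an adjusted p of 0.05, 0 channel genes passed in any of the 15 other fits (edgeR, DESeq2 or limma-voom), and 0 passed at 0.1 in edgeR's test with all libraries; the smallest adjusted p, 0.0957, came without overexpression replicate 1. The number with an unadjusted p below 0.05 was 8 to 13 in the settings with all 6 libraries and a filter, 24 without a filter on low counts, where 128 channel genes were tested, and 9 to 20 when 1 library was left out, with 20 without overexpression replicate 1. Non-overlapping channel genes numbered 23 to 38 when 1 library was left out, with 38 without overexpression replicate 1, 32 without control replicate 2 and 28 without overexpression replicate 2 or control replicate 1, beside 23.4 to 29.2% of all genes; fewer libraries make such gaps more frequent. The median log2 fold change lay between -0.036 and -0.0039 in the leave-one-out fits, and was 0.0041 without a filter, so its sign is not stable. Family medians changed sign in at least 1 setting for 7 of the 10 families; HCN, Kv accessory and sodium channel beta subunits kept theirs. Correlations of same-numbered libraries' deviations were 0.0287 to 0.063, against -0.0993 to 0.0386 for libraries with different numbers. With 3 libraries per group, these values cannot tell whether the replicate numbers pair the samples. Over the whole table, 9 genes passed; the count was 107 with DESeq2, 304 without a filter, 6 with limma-voom, 5 with the stricter filter and 2 to 63 with 1 library left out, 63 of them without overexpression replicate 1. With the replicate number as a block it was 26, and 11 of 112 channel genes had an unadjusted p below 0.05, beside 8.77% of all genes. Kcnj13 and Kcne2 were not tested with the stricter filter. Of 39 named genes, 34 kept their direction in every setting run and 5 did not. Those 5 had log2 fold changes near 0, and the cause of the sign changes was not tested. Kcna1 was at 0.00095 with RLE scaling, 0.0094 with upper-quartile scaling, 0.001 with DESeq2, 0.027 with limma-voom, 0.0048 without a filter, 0.0043 with the stricter filter, 0.0013 when scaled without Negr1 and mitochondrial genes and 0.012 after the GC correction. Kcna2 was at -0.00086 with the block and -0.025 after the GC correction. After that correction Kcnma1 was at -0.009 and Scn2a at -0.012. With 1 library left out, the log2 fold change ranged from -0.10 to 0.10 for Kcna1, -0.059 to 0.067 for Kcna2, -0.013 to 0.084 for Kcnma1, -0.12 to 0.044 for Scn1a and -0.037 to 0.084 for Scn2a.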
